A study of Mus musculus with 7 samples.

Results

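Hsd3b6, Lmx1a, Snx22, Lect2, Dnajb13 and Cacna1g are 6 of the 39017 genes counted in mouse fetal livers at embryonic stage E12.5. They were chosen for low levels in livers meant to lack Taf10, a subunit shared by TFIID, the general factor that brings RNA polymerase II to promoters, and the SAGA coactivator. They were selected on their fitted log2 differences: the choice joined the 4 non-globin genes with the largest negative log2 differences, among those past an adjusted p of 0.05, in TAF10KO against WT and in TAF10KO against TAF10HET. Candidates had a mean log2 CPM (defined below) of at least 1, and predicted, pseudogene and sex-linked genes were left out. With no such filters, Hsd3b6 ranked 17 and Lect2 122 from the lowest against WT. Against TAF10HET, Hsd3b6 ranked 50 and Cacna1g 133. Their differences between these groups are therefore a description and were not tested again. All 6 were among the 15800 genes that passed the filter on low counts.

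The 7 RNA-seq libraries were made from total RNA of liver cell suspensions of C57BL/6 embryos. The 2 TAF10KO livers carried EpoCre, a Cre recombinase driven by the erythropoietin receptor gene and so active in red cell precursors, and 2 lox alleles of Taf10 in their titles, while the series text gives lox over a knockout allele. The 3 TAF10HET livers also carried EpoCre, replicate 1 with lox over wild-type Taf10 and replicates 2 and 3 with wild-type over knockout Taf10. The 2 WT livers had 2 lox alleles and no Cre, so TAF10KO and WT differ in the presence of Cre as well as in deletion. Replicate 1 of each group carried the first of 2 date codes in the titles, and the 4 other libraries carried the second, whose meaning the labels do not state. The labels do not say whether livers came from separate litters, and p-values measure only the spread between these libraries.

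At this stage the liver holds many definitive erythroblasts, which make adult globins, beside hepatoblasts, macrophages, endothelium and mesenchyme. Circulating primitive erythroid cells that arose in the yolk sac pass through it and express the embryonic globins Hba-x, Hbb-y and Hbb-bh1. The 6 genes have no pathway in common. Hsd3b6 encodes a 3-beta-hydroxysteroid dehydrogenase of steroid hormone synthesis, Lmx1a a LIM homeodomain transcription factor of the roof plate and of dopamine neuron precursors, and Snx22 a sorting nexin that binds membrane phosphoinositides. Lect2 encodes a hormone secreted mainly by hepatocytes, Dnajb13 a co-chaperone found in the radial spokes of motile cilia and sperm flagella, and Cacna1g the pore of a T-type, low-voltage-activated calcium channel.

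Sequence before the transcription start was compared because the genes were chosen for a shared low level after loss of a TFIID subunit. RefSeq (GRCm38.p6) promoter windows matched 5 of the 6 genes, with no entry for Cacna1g. Capitals mark matches, on either strand, to a GATA motif (AGATAA or TGATAA or AGATAG or TGATAG), a KLF-type motif (CCNCNCCC) and an HNF1-type motif (GTTAAT). The stretches printed are those clear of annotated exons for Hsd3b6 (chr3:98814444-98814693, minus strand), Snx22 (chr9:66069760-66070009, minus strand) and Lect2 (chr13:56548560-56548788, minus strand), shown because each holds matches of a different make-up.
Hsd3b6: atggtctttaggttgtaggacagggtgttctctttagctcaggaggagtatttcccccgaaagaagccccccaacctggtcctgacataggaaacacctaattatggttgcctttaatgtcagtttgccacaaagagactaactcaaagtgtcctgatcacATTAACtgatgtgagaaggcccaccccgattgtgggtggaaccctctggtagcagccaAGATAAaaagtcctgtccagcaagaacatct
Snx22: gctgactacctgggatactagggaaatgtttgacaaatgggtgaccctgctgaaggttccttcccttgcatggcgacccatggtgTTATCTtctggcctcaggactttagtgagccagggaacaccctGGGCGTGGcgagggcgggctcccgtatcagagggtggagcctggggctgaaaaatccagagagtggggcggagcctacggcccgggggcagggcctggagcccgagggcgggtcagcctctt
Lect2: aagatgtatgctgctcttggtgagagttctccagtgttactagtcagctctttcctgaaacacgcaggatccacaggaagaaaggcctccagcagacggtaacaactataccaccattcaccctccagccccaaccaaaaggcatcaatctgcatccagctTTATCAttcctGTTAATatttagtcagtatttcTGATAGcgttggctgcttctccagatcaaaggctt
The Hsd3b6 stretch held a GATA match on the gene's own strand that began at -31 from the start and an HNF1-type match on the opposite strand at -89. The Snx22 stretch held a GATA match at -165 and a KLF-type match at -122, both on the opposite strand. Lect2 had GATA matches at -89 and -56 and an HNF1-type match at -78 between them. The Lmx1a window, which lies under an annotated exon and is not printed, held 5 KLF-type matches, some of them overlapping, and the Dnajb13 window, of which 105 bases are clear of exons, held none of these motifs. TATAAA was in none of the 5 genes' windows. Over 32851 RefSeq promoter windows of 250 bases, 12.4% held TATAAA, 26.5% a GATA match, 45.9% a KLF-type match and 6.43% an HNF1-type match. A match is a description of letters and not of binding.

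Taf10, the targeted gene, was at 37.8 and 43.8 CPM (counts scaled to a common library total, with TMM factors) in TAF10KO, at 78.1, 63.7 and 63.0 in TAF10HET and at 72.0 and 96.5 in WT, so that both TAF10KO libraries were below the other 5. Of all genes tested, 7.18% had that order. In the edgeR quasi-likelihood test, Taf10 was at a log2 difference of -1.04 from WT (adjusted p = 0.0542) and -0.73 from TAF10HET (adjusted p = 0.0782). It missed the threshold of 0.05 in both. Its counts cover exons inside and outside any deleted stretch. Each library held between 18008391 and 43401474 gene counts. Xist was at 1.40 CPM in TAF10KO replicate 2 and 2.64 in TAF10HET replicate 1, against 1651 to 1950 in the other 5 libraries. Both WT libraries were among those 5, so Xist differed within TAF10KO and TAF10HET but not within WT. No term for sex was fitted, and its part in the other levels was not tested. With genotype and date code in 1 fit (edgeR quasi-likelihood test), 96 genes passed in TAF10KO against WT (76 higher, 20 lower), 254 in TAF10KO against TAF10HET (182 higher, 72 lower), 1 in TAF10HET against WT (0.00633% of genes tested) and 6536 in the second against the first date code. The first 2 of these counts came to 0 with no term for the date code, and ranged from 0 to 1282 and from 16 to 1203 with 1 library left out, the lowest without either WT library and without TAF10HET replicate 3, and the highest without TAF10KO replicate 1.

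Hsd3b6 (ENSMUSG00000027869, chr3:98805504-98814443, minus strand, mm10) showed the largest difference of the 6 in both contrasts. In order of replicate, its level was 5.24 and 9.12 CPM in the TAF10KO livers, 21.3, 48.2 and 53.6 CPM in the TAF10HET livers and 22.8 and 46.0 CPM in the WT livers. Both TAF10KO libraries were far below the other 5, and in every group the libraries of the second date code were above that of the first. TAF10KO averaged 7.18 ± 2.74 CPM (SD, n = 2), TAF10HET 41.0 ± 17.3 (n = 3) and WT 34.4 ± 16.4 (n = 2), which puts TAF10KO at 20.85% of WT. The fitted log2 difference was -2.23 (SE 0.137) from WT and -2.30 (SE 0.132) from TAF10HET. In bulk RNA, fewer cells of a type and less RNA per cell cannot be told apart, here or for the other 5 genes.

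Lmx1a (ENSMUSG00000026686, chr1:167689237-167848741, plus strand) had a similar order of libraries at a lower level of expression. It stood at 1.03 and 1.42 CPM in TAF10KO, at 2.74, 6.69 and 7.62 in TAF10HET and at 3.10 and 5.89 in WT. These levels rest on 38 and 62 reads in TAF10KO, 53 to 173 in TAF10HET and 85 and 127 in WT. The exact Poisson 95% intervals, which cover counting error only, were 0.730 to 1.42 and 1.09 to 1.83 CPM in TAF10KO, and the lowest of the other 5 libraries, TAF10HET replicate 1, had 2.05 to 3.59 CPM. They say nothing of the spread between livers, and Lmx1a was chosen for its low TAF10KO values. The fitted log2 difference was -1.83 (SE 0.260) from WT and -1.97 (SE 0.25) from TAF10HET.

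Dnajb13 (ENSMUSG00000030708, chr7:100501716-100514960, minus strand) was at 5.65 and 5.99 CPM in TAF10KO, 12.9, 27.9 and 20.9 in TAF10HET and 11.9 and 16.8 in WT. The TAF10KO libraries lay close together below all others, and the highest values were in TAF10HET of the second date code. TAF10KO averaged 5.82 ± 0.245 CPM (SD, n = 2), TAF10HET 20.6 ± 7.51 (n = 3) and WT 14.4 ± 3.48 (n = 2). The log2 difference was -1.28 (SE 0.228) from WT and -1.68 (SE 0.220) from TAF10HET. It entered the set through the second of these, since in the first it did not pass the threshold.

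Snx22 (ENSMUSG00000039452, chr9:66065176-66069719, minus strand) was at 20.9 and 19.8 CPM in TAF10KO, 36.4, 60.6 and 49.7 in TAF10HET and 39.2 and 56.6 in WT. The TAF10KO libraries were nearly alike across date codes, while in TAF10HET and WT the second date code was higher. The means were 20.3 ± 0.798 CPM in TAF10KO, against 48.9 ± 12.1 in TAF10HET and 47.9 ± 12.2 in WT (SD). The log2 difference was -1.20 (SE 0.182) from WT and -1.17 (SE 0.174) from TAF10HET.

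Lect2 (ENSMUSG00000021539, chr13:56542464-56548502, minus strand) was at 11.6 and 7.90 CPM in TAF10KO, 22.9, 14.1 and 11.5 in TAF10HET and 22.8 and 19.7 in WT. TAF10KO did not overlap WT, but it did overlap TAF10HET, because TAF10HET replicate 3 was just below TAF10KO replicate 1. In every group the second date code was lower, the reverse of Hsd3b6 and Lmx1a. The log2 difference was -1.15 (SE 0.176) from WT and -0.80 (SE 0.165) from TAF10HET, where it did not pass the threshold.

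Cacna1g (ENSMUSG00000020866, chr11:94408391-94474198, minus strand) was at 13.4 and 5.70 CPM in TAF10KO, 34.8, 23.2 and 16.0 in TAF10HET and 19.2 and 15.8 in WT. TAF10KO replicate 1 came close to WT replicate 2, and TAF10HET ranged from the level of WT to well above it. The means were 9.54 ± 5.44 CPM in TAF10KO, against 24.7 ± 9.46 in TAF10HET and 17.5 ± 2.42 in WT (SD). The log2 difference was -0.98 (SE 0.25) from WT, where it did not pass the threshold, and -1.55 (SE 0.238) from TAF10HET. Without WT replicate 2 the difference from WT was -0.63, and without WT replicate 1 it was -1.36. The library with the most Cacna1g, TAF10HET replicate 1, also held the highest sums of stellate and mesenchymal (2794 CPM), mesothelial (133), neural (98.1), cholangiocyte (30.1) and cardiac (67.4, of which Actc1 gave 49.1) markers. The next highest sums were 1941, 111, 65.1, 26.6 and 10.6 CPM. Their part in the Cacna1g level was not tested. Without that library the difference from TAF10HET was -1.52.

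**Figure D1:**
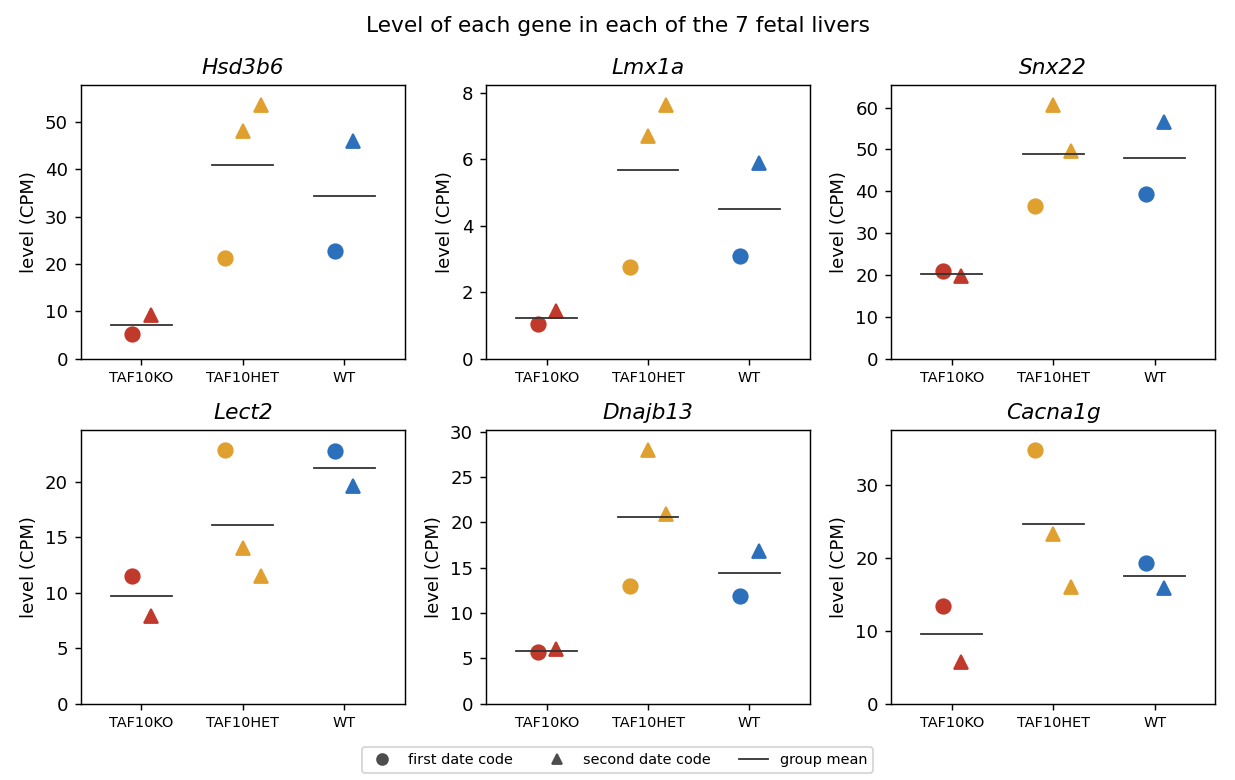
CPM (TMM-scaled counts, linear axis from 0) of each of the 6 genes in the 7 libraries, with TAF10KO left of TAF10HET and WT, 1 point per library marked by date code and a line at each group mean. Hsd3b6, Lmx1a, Dnajb13, Snx22 and Cacna1g have both TAF10KO points below the other 5, and Lect2 has TAF10HET replicate 3 (11.5 CPM) beside TAF10KO replicate 1 (11.6 CPM).

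Counted over libraries, 5 of the 6 genes had both TAF10KO libraries below the other 5. Of all genes tested, 7.18% did. In TAF10KO against WT, 4 of the 6 were past the threshold and lower, beside 0.127% of genes tested that were lower, 0.481% that were higher and 0.608% called in either direction. In TAF10KO against TAF10HET 5 of the 6 were past it, beside 0.456% lower, 1.15% higher and 1.61% in either direction. These contrasts chose the genes, so nothing is read from the counts.

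The choice cut through a graded list, given here under the same filters. In TAF10KO against WT the last gene inside was Lect2 at -1.15, and the next called non-globin genes were Ackr1 (-0.91), a chemokine receptor of red cells, the transferrin receptor Tfrc (-0.84) and Nxpe2 (-0.78). In TAF10KO against TAF10HET the last gene inside was Cacna1g at -1.55, and next came Runx1t1 (-1.32), a transcriptional corepressor, Sowaha (-1.19) and Snx22 itself (-1.17), a member through the other contrast.

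Per transcript length the 6 genes took another order. In WT, mean RPKM was 23.1 for Lect2, 19.1 for Hsd3b6, 16.6 for Snx22, 5.26 for Dnajb13, 1.73 for Cacna1g and 1.32 for Lmx1a. In TAF10KO the order changed to Lect2 (10.6), Snx22 (7.03), Hsd3b6 (3.98), Dnajb13 (2.13), Cacna1g (0.941) and Lmx1a (0.362). Among genes tested, mean RPKM over the 7 libraries put Lect2 at the 81.7th percentile and Lmx1a at the 29.7th. Lect2, Hsd3b6 and Snx22 were thus well expressed liver transcripts, and Cacna1g and Lmx1a were scarce ones.

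The differences of TAF10KO from WT had the same sign on both date codes for all 6 genes, with 1 TAF10KO and 1 WT library on each. On the second and the first date code they were -2.33 and -2.11 for Hsd3b6, -1.99 and -1.52 for Lmx1a, -1.51 and -0.91 for Snx22, and -1.31 and -0.98 for Lect2. For Dnajb13 they were -1.48 and -1.07, and for Cacna1g -1.46 and -0.52. Each was larger in size on the second date code. Against TAF10HET, whose alleles differ between the date codes, the values on the second and the first were -2.47 and -2.01 for Hsd3b6, -2.27 and -1.35 for Lmx1a, -1.47 and -0.80 for Snx22, -2.0 and -1.18 for Dnajb13 and -1.75 and -1.37 for Cacna1g. Lect2 alone went the other way, with -0.68 and -0.98. With 1 or 2 libraries in each of these cells, no test of the difference between date codes was made. The choice required TAF10KO below WT on each date code for genes taken from that contrast. For genes taken from the other it required TAF10KO below every TAF10HET library. Of all genes tested, 15.6% had TAF10KO below WT and below TAF10HET on both date codes. Nothing is therefore read from the shared sign.

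**Figure D2:**
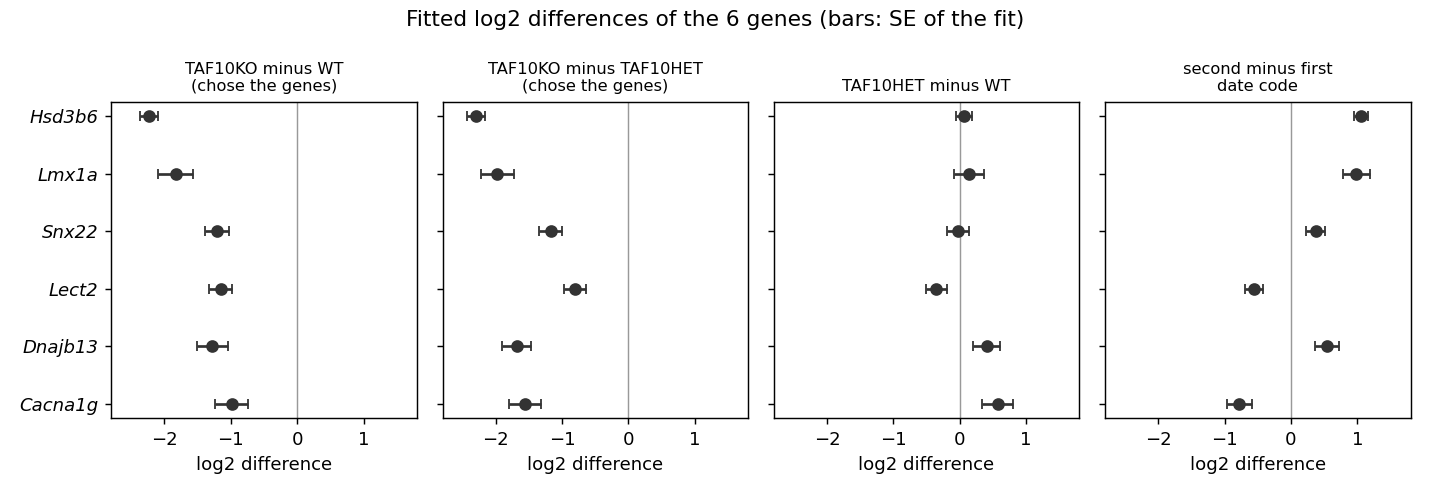
Fitted log2 differences with their SE for the 6 genes in TAF10KO against WT, TAF10KO against TAF10HET, TAF10HET against WT and the second against the first date code. All values of TAF10KO against WT and against TAF10HET lie below 0 (from -2.30 to -0.80), those of TAF10HET against WT lie between -0.35 and 0.57, and the date code values take both signs.

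TAF10HET was set beside WT with values of both signs. The log2 difference of TAF10HET from WT was 0.06 for Hsd3b6, 0.14 for Lmx1a, -0.03 for Snx22, -0.35 for Lect2, 0.41 for Dnajb13 and 0.57 for Cacna1g. With the date codes pooled, TAF10HET and WT overlapped in CPM for each of the 6. Within each date code, every TAF10HET library was above WT for Dnajb13 and for Cacna1g. The share of all genes with either pattern was not counted. The WT libraries also served in choosing the genes, so no test of these values is given. For Snx22 the sign changed when single libraries were left out, with a range from -0.15 to 0.11, and for Hsd3b6 the range was -0.01 to 0.19. For Cacna1g the difference was 0.97 without WT replicate 2 and 0.25 without WT replicate 1, and for Lect2 it was -0.08 without WT replicate 2 and -0.58 without WT replicate 1.

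The difference between date codes was not a criterion in choosing the genes, but the choice was not independent of it. It compared TAF10KO with WT within date codes and used adjusted p-values from a fit with a date code term. A small residual spread favours both being chosen and passing here. The date code was tested beside genotype over all 15800 genes (edgeR quasi-likelihood test, Benjamini-Hochberg adjustment). Of the 6 genes, 5 passed, beside 41.4% of all genes (18.7% higher and 22.7% lower on the second date code), so a gene that varied with the date code was no rarity here. Hsd3b6 was higher on the second date code by a log2 difference of 1.05 (SE 0.105, adjusted p = 0.000481), Lmx1a by 0.98 (SE 0.201, adjusted p = 0.00785) and Dnajb13 by 0.54 (SE 0.178, adjusted p = 0.0436). Lect2 was lower with -0.56 (SE 0.134, adjusted p = 0.0142) and Cacna1g with -0.78 (SE 0.190, adjusted p = 0.0165). Snx22 at 0.38 (SE 0.142) missed the threshold (adjusted p = 0.0696). The set was therefore split by the date code, with Hsd3b6, Lmx1a and Dnajb13 on one side and Lect2 and Cacna1g on the other, though TAF10KO was low in all.

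These date code results rested on unequal support. Hsd3b6 kept an adjusted p of at most 0.00844 whichever single library was left out. Lmx1a missed the threshold without WT replicate 1 (adjusted p = 0.0547) or WT replicate 2 (0.0572). Lect2 missed it without TAF10HET replicate 1 (0.0611), and so did Cacna1g (0.0797). Dnajb13 missed it without TAF10HET replicate 1 (0.207), TAF10HET replicate 2 (0.0623), TAF10HET replicate 3 (0.0741), WT replicate 1 (0.151) or WT replicate 2 (0.147). Snx22 passed it without TAF10KO replicate 1 (0.00135) or TAF10KO replicate 2 (0.00136). The date code stands with allele type within TAF10HET, and the effects of the 2 on that group cannot be told apart.

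Likeness of profile was measured as the root-mean-square difference (RMS) in mean-centred log2 CPM over the 7 libraries, among 11049 genes whose log2 CPM averaged 1 or more. Hsd3b6 and Lmx1a ran almost parallel to the embryonic alpha-like globin Hba-x and to each other. The nearest genes to Lmx1a were Hba-x (RMS 0.17), Hsd3b6 (0.22) and Dnajb13 (0.32), against an RMS of its own profile about its mean of 1.01. Those to Hsd3b6 were Hba-x (0.22), Lmx1a (0.22) and Dnajb13 (0.48), against 1.19 of its own. The embryonic beta-like globin Hbb-y was the fourth for each and Snx22 the fifth.

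Hba-x itself was at 113 and 153 CPM in TAF10KO, 282, 894 and 848 in TAF10HET and 317 and 802 in WT. Globins were barred from the set by its rule, and Hba-x at -1.90 in TAF10KO against WT lies between Hsd3b6 (-2.23) and Lmx1a (-1.83). Expressed as a share of Hba-x, Lmx1a was at 0.912% and 0.931% in TAF10KO, 0.974%, 0.748% and 0.899% in TAF10HET and 0.976% and 0.735% in WT. That is a 1.33-fold range over 7 libraries in which Lmx1a itself varied 7.39-fold. Hsd3b6 stood at 4.63% to 7.55% of Hba-x, a 1.63-fold range, while its own CPM varied 10.2-fold. For Dnajb13 the ratio varied 2.38-fold against 4.95-fold for the gene. For Snx22, Lect2 and Cacna1g the ratio varied 3.15-fold, 7.54-fold and 6.54-fold, more than the 3.07-fold, 2.89-fold and 6.10-fold of the genes themselves. The ratio was chosen after these values were seen, and it too takes in the low TAF10KO values on which the genes were chosen.

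**Figure D3:**
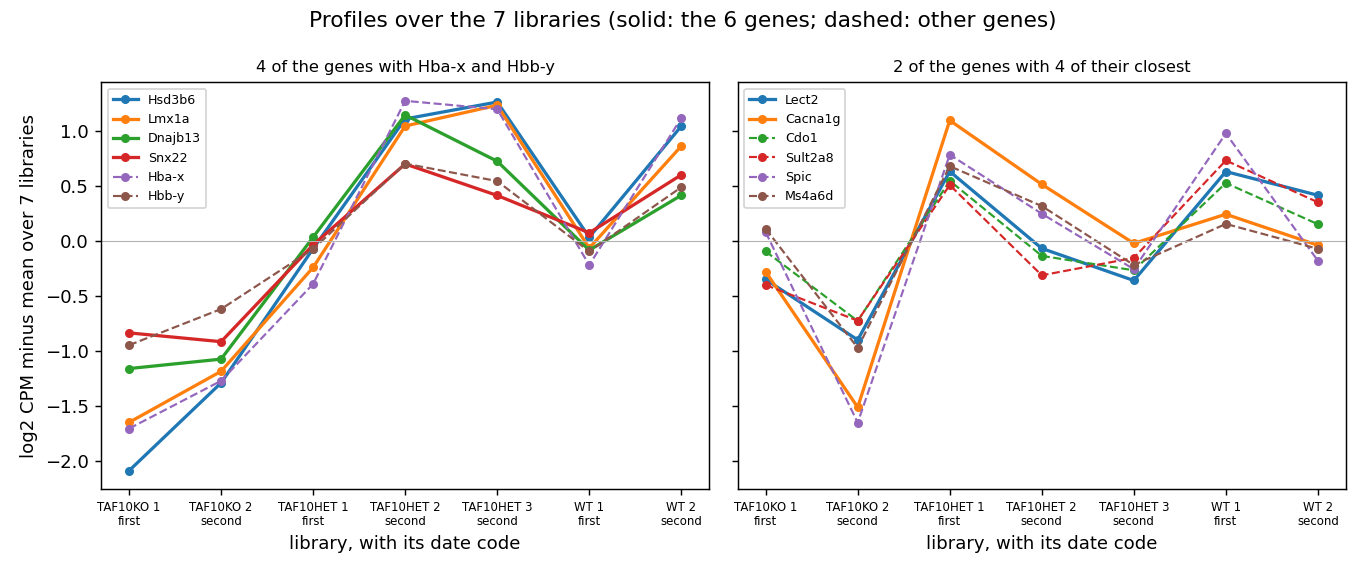
Log2 CPM minus its mean over the 7 libraries, ordered by genotype, for Hsd3b6, Lmx1a, Dnajb13 and Snx22 with Hba-x and Hbb-y (left) and for Lect2 and Cacna1g with Cdo1, Sult2a8, Spic and Ms4a6d (right); solid lines are the 6 genes and dashed lines the others. Hsd3b6 and Lmx1a follow Hba-x within an RMS of 0.22 and 0.17, and on the right TAF10KO replicate 2 is the lowest library for both members. The low TAF10KO values on which the genes were chosen are part of these profiles.

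Snx22 was nearest to Fn3k (RMS 0.10), the fructosamine 3-kinase gene, then to Aqp8, an aquaporin, Mgll, a monoglyceride lipase, Hbb-y and Kctd14. Fn3k was at 39.2 and 39.1 CPM in TAF10KO, 65.5, 118 and 95 in TAF10HET and 65.8 and 92.2 in WT, and so had the level TAF10KO pair seen for Snx22. Dnajb13 was also nearest to Fn3k (0.24), followed by Snx22, Hbb-y, Mgll and Sowaha. Lect2 was nearest to Gimd1 (0.14), Sult2a8, a hepatic sulfotransferase, P2ry13, a purine receptor, Cdo1, cysteine dioxygenase, and Bbox1, an enzyme of carnitine synthesis in liver and kidney. Cacna1g was nearest to Ms4a6d (0.33), Runx1t1, Spic, the transcription factor of iron-recycling macrophages, Cd86, a costimulatory ligand of antigen-presenting cells, and Bbox1. Its nearest gene was farther off than that of the other 5.

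Profiles were also centred within each date code, which leaves genotype and other differences between livers. Then 2 of the 5 nearest genes were retained for Hsd3b6, 3 for Lmx1a, 2 for Snx22 and 1 each for Lect2, Dnajb13 and Cacna1g. Centring takes out the date code and keeps the low TAF10KO values on which the genes were chosen. Nearness to genes with a similar fall was therefore partly fixed by the choice. Hba-x stayed among the nearest 2 of both Hsd3b6 and Lmx1a. Marco, a scavenger receptor of macrophages, entered the list of Hsd3b6, and Taf10 and Epor entered that of Lect2. The closest gene to Cacna1g then was Dnajb13.

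The same distance was taken from each gene to the mean profile of 17 cell type marker lists with at least 3 tested genes, an addition made after the data were seen. The embryonic globin list was the nearest to Lmx1a (RMS 0.27), Dnajb13 (0.23), Snx22 (0.34) and Hsd3b6 (0.45). The list of general erythroid genes came next for each, at 0.76, 0.58, 0.41 and 0.95. The distance takes in the low TAF10KO level on which the genes were chosen, and the embryonic globins were themselves low in TAF10KO, so part of this likeness was fixed by the choice. The macrophage list was the nearest to Lect2 (0.36), with the hepatocyte list beside it (0.41). It was also the nearest to Cacna1g (0.50), with the hepatocyte list at 0.62. Within bulk libraries this ranks profiles and does not place a transcript in a cell, and the cell of origin was not tested.

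Marker lists were also read for the tissues in which some of these genes are best known. Of 8 steroidogenic markers, 7 averaged under 1 CPM and only Star, the cholesterol carrier of steroid-making mitochondria, was tested, with summed levels of 3.12 to 3.28 CPM in TAF10KO, 3.05 to 4.28 in TAF10HET and 2.73 to 3.16 in WT. Of 10 markers of roof plate and midbrain floor, 8 averaged under 1 CPM, among them the close relative Lmx1b. The list summed to 7.01 to 10.05 CPM in TAF10KO, 8.03 to 10.2 in TAF10HET and 8.82 to 10.7 in WT, above Lmx1a itself, nearly all of it from Foxa2 and Nr4a2. In the multiciliated list, 6 of the 9 genes in the files averaged under 1 CPM, and Ccdc39, Foxj1 and Ccdc40 did not. That list summed to 10.2 to 10.8 CPM in TAF10KO, 10.2 to 13.3 in TAF10HET and 11.2 to 11.9 in WT. Of 6 placental trophoblast markers, 5 averaged under 1 CPM, with Prl3d1 and Prl2c2 at 0 in all libraries.

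Markers of cells that the liver does hold also differed with genotype and date code, and their part in the levels of the 6 genes was not tested. The embryonic globins summed to 1372 to 1838 CPM in TAF10KO, 2679 to 5025 in TAF10HET and 2487 to 4197 in WT, with a median log2 difference of -0.98 for TAF10KO against WT and -1.26 against TAF10HET. Of the 3, 2 were called lower against WT and 3 against TAF10HET, and 0 were called against WT when either WT library, or TAF10HET replicate 2 or 3, was left out. General erythroid genes had medians of -0.23 and -0.24, with 1 of 16, Tfrc, called lower in each. When the same libraries were left out 0 were called against WT, and there were 5 without TAF10KO replicate 1, 2 without TAF10KO replicate 2 and 6 without TAF10HET replicate 1.

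Macrophage genes summed to 158 to 273 CPM in TAF10KO, 210 to 317 in TAF10HET and 197 to 338 in WT, with medians of -0.43 and -0.52. Of the 9 tested, 0 were called against WT (5 at an unadjusted p under 0.05, and 1 with DESeq2), and against TAF10HET only C1qa, a complement component, was. Hepatocyte genes summed to 14168 to 22880 CPM in TAF10KO, 14379 to 20053 in TAF10HET and 18536 to 22391 in WT, with medians of -0.23 and 0.06 and 0 of 16 called in either by edgeR (6 and 3 at an unadjusted p under 0.05, and 2 against WT with DESeq2). Without 1 library the calls against WT reached 5 for the macrophage list (TAF10KO replicate 1) and 3 for the hepatocyte list (TAF10HET replicate 1). Over all genes tested the medians were 0.03 and 0.00. Those of Lect2 were -1.15 and -0.80. On the second date code, 14 of 16 erythroid genes and all 3 embryonic globins were higher (medians 0.58 and 0.97), while 12 of 16 hepatocyte genes and 7 of 9 macrophage genes were lower (medians -0.48 and -0.51), beside a median of 0.02 over all genes. Of all genes tested, 18.7% were called higher and 22.7% lower on that date code. The date code differences of Hsd3b6, Lmx1a and Dnajb13 had the sign of the erythroid and embryonic globin lists. The negative sign of Lect2 and Cacna1g was that of most lists of non-blood cells, with medians of -0.96 for endothelial, -2.53 for stellate and mesenchymal, -2.17 for mesothelial, -1.75 for cholangiocyte, -1.63 for neural and -1.93 for cardiac genes.

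Other lists had medians of the opposite sign to the 6 genes between genotypes. Endothelial genes had medians of 0.50 in TAF10KO against WT and 0.41 against TAF10HET, with 2 of 10 called higher against WT, Flt1 and Pecam1, and 3 against TAF10HET, these and Kdr. Against WT 0 were called without either WT library or TAF10HET replicate 3, 1 without TAF10HET replicate 2, and 5 without either TAF10KO library or TAF10HET replicate 1. The endothelial sums were 254 to 532 CPM in TAF10KO, 201.3 to 371 in TAF10HET and 196 to 396 in WT, and 10 of 10 genes were lower on the second date code. Neutrophil genes had medians of 0.68 and 0.65, with 0 of 10 called against WT (6 at an unadjusted p under 0.05, and 2 with DESeq2) and 2 higher against TAF10HET, Mpo and Prtn3. They summed to 491 and 798 CPM in TAF10KO, 319 to 539 in TAF10HET and 388 and 483 in WT. Stellate and mesenchymal genes were lower on the second date code in 10 of 10.

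**Figure D4:**
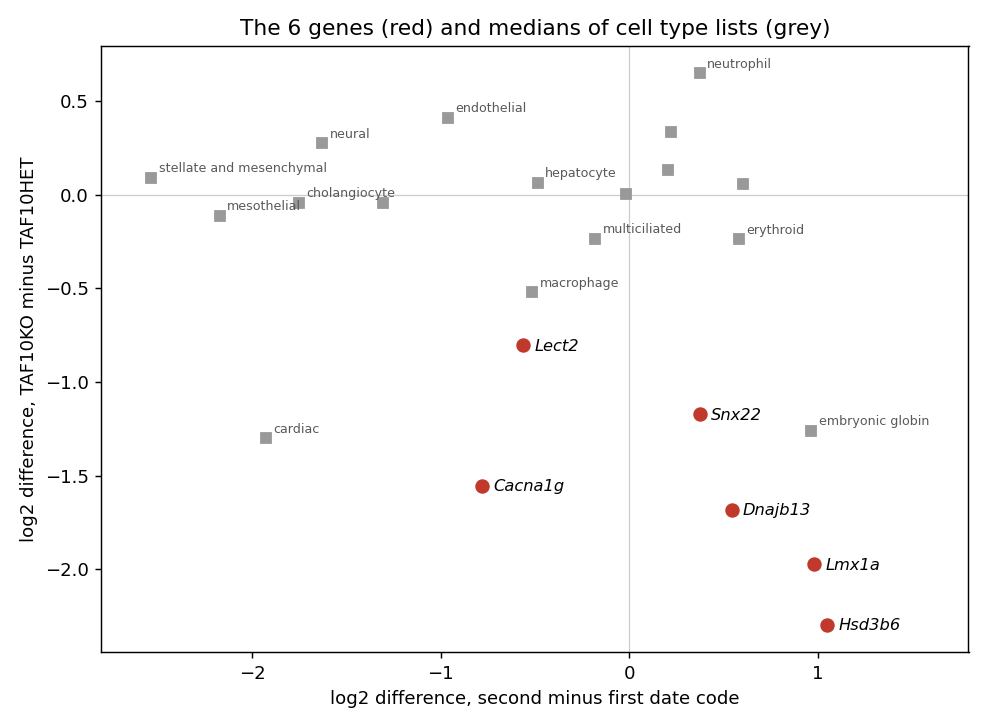
Log2 difference of the second from the first date code (horizontal) and of TAF10KO from TAF10HET (vertical) for the 6 genes (red circles) and for the medians of cell type lists (grey squares, the more distant ones named). Hsd3b6, Lmx1a, Dnajb13 and Snx22 share the lower right with the embryonic globin (0.97 and -1.26) and erythroid lists. Lect2 and Cacna1g lie lower left, as do among others the macrophage (-0.51 and -0.52), multiciliated, mesothelial and cardiac lists (-1.93 and -1.30 for the last, from 3 genes).

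Calls among relatives of the 6 genes are to be read beside the 0.608% of all genes called in TAF10KO against WT and the 1.61% against TAF10HET, shares at which short lists hold few calls or none. Their calls by date code are to be read beside the 22.7% of all genes lower and 18.7% higher on the second date code. Of the 8 other genes of the 3-beta-hydroxysteroid dehydrogenase family, 6 were in the files and 3 were tested, with 0 called between genotypes. The most abundant, Hsd3b7, an enzyme of bile acid synthesis, differed from WT in TAF10KO by 0.14 on the log2 scale. Hsd3b2 was higher on the second date code (0.48, edgeR adjusted p = 0.0366). In the steroid synthesis list 0 of 8 tested genes were called between genotypes. Of 13 other LIM homeodomain genes and cofactors, 7 were tested and 0 called between genotypes. The cofactor Ldb1, the most abundant and itself a part of the erythroid GATA1 complex, was at 0.35 in TAF10KO against WT (adjusted p = 0.0922). By date code 5 of the 7 were lower, led by Lhx2 (-2.25) and Isl1 (-2.48), and Ldb1 was higher (0.38), so that Lmx1a and Ldb1 went one way and most of the family the other.

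Of 29 other sorting nexins 28 were tested, and 0 were called between genotypes. The most abundant, Snx3, which acts in transferrin receptor recycling in erythroid cells, differed by 0.00 on the log2 scale between TAF10KO and WT. Of 12 other DNAJB co-chaperones, 10 were tested. Dnajb4 was lower in TAF10KO than in TAF10HET (-0.50, adjusted p = 0.025), a call that ended when either WT library, or TAF10HET replicate 2 or 3, was left out, and 0 were called against WT. Of 7 tested radial spoke and axoneme genes 0 were called between genotypes or date codes, and the most abundant of them, Ropn1l, had 0.878 RPKM. Dnajb13 averaged 5.26 RPKM in WT.

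Among 12 tested liver-secreted hormones and receptors of LECT2, Igfbp1, a binding protein for insulin-like growth factors, was higher in TAF10KO than in WT (2.10, adjusted p = 0.00894) and than in TAF10HET (2.11, adjusted p = 0.00387). It stood at 147 and 152 CPM in TAF10KO, 30.3, 46.3 and 30.8 in TAF10HET and 31.7 and 38.8 in WT, the opposite direction to Lect2. The list's count against WT was 0 when either WT library was left out, and 3 without either TAF10KO library or TAF10HET replicate 1. Of 17 other voltage-gated calcium channel subunits, 14 were tested and 0 were called between genotypes, while 6 were lower on the second date code, among them Cacnb3 (-2.28) and Cacna1h (-1.29), another T-type pore. At an unadjusted p under 0.05, TAF10KO against WT held 1 gene of the 3-beta-hydroxysteroid dehydrogenase list, 0 of steroid synthesis, 2 of the LIM list, 3 sorting nexins, 5 DNAJB genes, 0 radial spoke genes and 2 calcium channel subunits. Against TAF10HET the counts were 2, 1, 2, 4, 3, 2 and 3. Over all 15800 genes, 2830 and 2705 were under that p, so these counts are no result about the relatives. DESeq2 called 1 gene each in the 3-beta-hydroxysteroid dehydrogenase, LIM, DNAJB and calcium channel lists against WT.

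Position was checked for reads that could come from other genes, since the library kit does not mark strand. Exons of Snx22 overlap those of Ppib, a cyclophilin on the opposite strand, over 825 bases, and Ppib, at 81.9 to 132 CPM, differed from WT in TAF10KO by -0.33 (adjusted p = 0.224). Exons of Dnajb13 overlap those of Ucp2, a mitochondrial carrier, over 305 bases. Ucp2 was far more abundant, at 737 and 905 CPM in TAF10KO, 558, 1122 and 1025 in TAF10HET and 622 and 989 in WT, with a log2 difference from WT of 0.07 in TAF10KO. Reads from the overlaps cannot be assigned to a strand, so part of the Snx22 and Dnajb13 counts is uncertain. Of the 50-base stretches of each gene's transcripts, 25.3% in Snx22 (all with Ppib), 9.22% in Dnajb13 (with Ucp2) and 15.7% in Hsd3b6 (with its family) also occurred in another gene, against 0.182% in Cacna1g, 0.0598% in Lmx1a and 0% in Lect2.

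The neighbours described here were not called between genotypes. Hsd3b3 and Hsd3b1 flank Hsd3b6, the first with 26 reads in all and the second at -0.55 in TAF10KO against WT (adjusted p = 0.0922). Abcc3, next to Cacna1g, was at -0.95 (adjusted p = 0.199), and Tgfbi, next to Lect2, at 0.09 (adjusted p = 0.835).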

How the data were processed

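Total RNA of 7 fetal liver cell suspensions was made into TruSeq libraries, per the labels' protocols. The deposited values are whole-number counts per Ensembl gene (the authors' own, not normalised). The submitters' processing notes name TopHat2 2.0.8, DESeq2 and mm10; the counting program and its strand setting were not given in the sources used here. Summary lines that name no gene (6.81% to 10.1% of reads in no feature, 3.98% to 5.94% ambiguous, 14.1% to 22.2% not unique) were left out of library sizes and tests. GENCODE M21 gave symbols for 37693 of 39017 identifiers, and the 1324 others held 0.198% of counts.

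Counts per library ranged from 18008391 to 43401474. In R 4.3.3, edgeR 4.0.16 fitted group and date code over all 7 libraries (filterByExpr, TMM, robust dispersion, quasi-likelihood F test), with two-sided p-values adjusted by Benjamini-Hochberg over 15800 genes and a threshold of 0.05. Within-date values, profiles and likeness used log2 CPM with a prior count of 2, and RPKM used exon lengths of the annotation. The model was tested on simulated counts. Deviations from group means had correlations over genes from 0.40 to 0.74 where 2 libraries of different groups shared a date code (8 pairs) and from -0.74 to -0.40 where they did not (8 pairs), which in groups of 2 mirror each other by construction; the block is the date code and the labels do not say that it marks a litter or day. The 6 genes, the lists and the fit with date code were chosen with earlier results of these data known.

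Named genes were the 6, Taf10, overlapping and flanking genes, the 5 nearest in profile (no predicted, pseudogene or sex-linked symbols), the most abundant relative and up to 2 called genes of each pathway list, and the 3 ranked next to the 6. A flanking gene is not reported here. Xist, the marker genes C1qa, Star, Flt1, Pecam1, Kdr, Lyve1, Mpo, Prtn3, Foxa2, Nr4a2, Ccdc39, Foxj1, Ccdc40, Actc1, Lmx1b, Prl3d1, Prl2c2 and the genes of the within-date lists were named beside these after their values were seen. Alternatives were median-of-ratios factors, DESeq2 1.42.0, no filter, no term for date code, each library left out, a prior count of 0.5 and centring within date code.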

Additional observations from a re-analysis of the deposited data

Results flagged for a closer look

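By sign alone, 3 of the 6 genes had TAF10HET libraries on opposite sides of WT on the 2 date codes, in log2 CPM. For Lect2 this rests on a difference of 0.0011. The share of all genes that meet this rule was not counted, so nothing is read from the number. Hsd3b6 was 0.066 and 0.22 above WT in the TAF10HET livers of the second date code and differed by -0.10 in that of the first. Lmx1a was 0.18 and 0.37 above WT on the second date code and at -0.17 on the first. Lect2 was at -0.48 and -0.77 on the second date code and at 0.0011, level with WT, on the first. These differences between date codes were not tested. The TAF10HET livers of the second date code carried wild-type over knockout Taf10 and that of the first lox over wild-type Taf10, and each date code had 1 WT library.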

How the results depend on the processing

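All 6 genes kept a negative log2 difference of TAF10KO from WT and from TAF10HET in each of the 11 alternatives run, with ranges from -2.40 to -2.09 for Hsd3b6 and from -1.36 to -0.63 for Cacna1g against WT. The genes were chosen for low TAF10KO values in these same libraries, so the kept sign was largely fixed by the choice. The number of genes called over the whole table varied widely. For TAF10KO against WT it was 96, and 589 with DESeq2 (324 higher, 265 lower), 1399 with no filter on low counts, and 0 to 1282 with 1 library left out. It was 0 without WT replicate 1 or 2, 13 and 31 without TAF10HET replicates 3 and 2, 887 without TAF10HET replicate 1, and 529 and 1282 without TAF10KO replicates 2 and 1. For TAF10KO against TAF10HET it was 254, and 690 with DESeq2 (370 higher, 320 lower), 1498 with no filter, and 16 to 1203 with 1 library left out (16 and 42 without TAF10HET replicates 3 and 2, 26 without either WT library, 486 without TAF10HET replicate 1, 643 and 1203 without TAF10KO replicates 2 and 1). For TAF10HET against WT it was 1, and 9 with DESeq2, 289 with no filter, and 0 to 13 with 1 library left out. With no replicate block for the date code, a fit that leaves the date code in the spread, 0 genes were called in each of these 3 comparisons, beside 2830, 2705 and 530 genes at an unadjusted p under 0.05 with the block. For the second against the first date code 6536 genes were called, and 3206 to 7303 with 1 library left out, the lowest without WT replicate 2 and then 3207 without WT replicate 1. The cause of these shifts was not tested. In the small differences of TAF10HET from WT, the sign turned with single libraries for Snx22 (-0.03, and 0.11 without TAF10HET replicate 1) and Hsd3b6 (0.06, and -0.01 without TAF10HET replicate 3). In the date code results of the 6 genes, 4 alternatives newly passed and 9 newly missed the threshold. With 2 or 3 libraries a group, depth limited Lmx1a most, at 38 to 173 reads a library.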
